A study of Rattus norvegicus with 9 samples.

Results

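Nuclear genes that set the shape and the turnover of mitochondria were followed in rat left ventricle after myocardial infarction (MI). They were chosen by gene name as 3 fusion genes (Mfn1, Mfn2 and Opa1), 3 fission genes (Dnm1l, Fis1 and Mff) and 4 mitophagy genes (Pink1, Bnip3, Bnip3l and Fundc1). Of these 10 genes, 9 had a row among the 35843 genes of the expression table, and each of them had 1 row. Mfn2 was not analysed here.

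Mitochondria join and divide throughout the life of a cell. The mitofusins Mfn1 and Mfn2 tether and fuse the outer membranes, Opa1 fuses the inner membranes and shapes the cristae, and the dynamin-like GTPase encoded by Dnm1l (Drp1) is drawn to the outer membrane by adaptors such as Mff and Fis1 and constricts it. Damaged mitochondria are cleared by mitophagy, either through the kinase Pink1, which is stabilised on damaged mitochondria and activates the ubiquitin ligase Parkin, or through receptors in the outer membrane (Bnip3, Bnip3l and Fundc1) that bind the autophagosome directly. The heart depends on mitochondria for its ATP, and Bnip3 and Bnip3l are known as genes that respond to low oxygen.

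RNA-seq was available for 9 SD rats, 3 in each of 3 groups, with left ventricles taken on day 28. Group Sham was operated without infarction, group MI had the left anterior descending coronary artery tied, and both received saline by daily gavage. Group MI + DAPA (1st d) had the same ligation and received dapagliflozin (DAPA), an inhibitor of the sodium-glucose cotransporter SGLT2, at 1 mg/kg by daily gavage from day 1. The study's methods describe adult male rats. For molecular work they name mainly tissue along the infarct border, after the scar had been cut away, or the matching site in group Sham. For RNA-seq they name left ventricles, and the study's results speak of infarct myocardium, so the exact site of these samples is not settled. Each sample title names 2 items under 1 rat number, which the labels do not explain, and each was taken as 1 rat. The comparisons of group MI with group Sham and of group MI + DAPA (1st d) with group MI share the 3 MI rats, and the comparison of group MI + DAPA (1st d) with group Sham shares rats with both.

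The libraries differed in ways that bear on every value below. Values are FPKM (fragments scaled to gene length and library size), from which the whole reads behind 18896 of 18896 genes detected in 4 or more libraries were worked out, in total 13597239 to 17210909 reads per rat. Transcripts of the mitochondrial genome took 63.2% ± 3.18 (SD, n = 3) of the reads of Sham rats, 13.8% ± 6.15 of those of MI rats and 25.6% ± 7.42 in group MI + DAPA (1st d), so that 5702454 to 6570698 reads per rat lay outside it in group Sham and 11440726 to 13171891 in the other groups. Of 18 cardiomyocyte markers, none was at 0 in any rat, and their summed FPKM was 8784 to 12612 in Sham rats, 2554 to 12890 in MI rats and 10474 to 22233 in treated rats. Fibroblast markers summed to 516 to 827, 4108 to 7995 and 2599 to 4497 in the same order, and macrophage markers to 157 to 495, 1948 to 3541 and 1066 to 1983. Endothelial markers summed to 946 to 1128, 247 to 328 and 321 to 370. In bulk tissue, fewer cells of a type and less RNA per cell cannot be told apart. MI replicate 2 had the lowest cardiomyocyte sum (2554) and the lowest mitochondrial share (7.07%) of the 9 rats, and it was also the lowest of the 9 rats in 6 of the 9 genes. The part of tissue makeup and of this rat in the results below was not tested beyond leaving the rat out.

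Promoter sequences are shown for the gene with the clearest difference between group MI and group Sham (Mfn1), for Pink1, which fell beside it, and for Bnip3, whose sequence shares with that of Pink1 the letters CACGTG, a form of the E-box. Other forms of the E-box were not searched. RefSeq promoters on the rat assembly GRCr8 were found for 7 of the 9 genes (Fis1 has 2), not for Bnip3l and Fundc1. The 250 bases before the annotated start site are given 5′ to 3′ on the strand of the gene, with every CACGTG in capitals.
Pink1, minus strand, chr5:155825951-155826200: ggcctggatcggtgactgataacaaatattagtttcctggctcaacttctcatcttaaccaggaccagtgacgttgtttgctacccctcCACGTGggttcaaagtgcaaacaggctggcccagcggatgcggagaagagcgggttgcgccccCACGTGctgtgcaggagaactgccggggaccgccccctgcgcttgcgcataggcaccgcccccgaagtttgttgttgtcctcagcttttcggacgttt
Bnip3, minus strand, chr1:203154963-203155212: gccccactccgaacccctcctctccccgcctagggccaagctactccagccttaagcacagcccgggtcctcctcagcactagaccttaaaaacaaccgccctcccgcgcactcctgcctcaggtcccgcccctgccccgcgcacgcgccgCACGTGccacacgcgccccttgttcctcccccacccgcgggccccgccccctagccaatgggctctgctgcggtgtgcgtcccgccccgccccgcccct
Mfn1, plus strand, chr2:117241508-117241757: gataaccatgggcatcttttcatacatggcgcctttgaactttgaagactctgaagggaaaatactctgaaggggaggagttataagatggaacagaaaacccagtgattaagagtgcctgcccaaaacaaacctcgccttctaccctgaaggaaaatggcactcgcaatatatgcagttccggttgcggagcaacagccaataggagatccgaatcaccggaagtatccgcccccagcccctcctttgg

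Pink1 held CACGTG at 2 places, 161 and 98 bases before the start, and Bnip3 held it once, 99 bases before. It was in none of the other 6 promoters of these genes, and 5.59% of the 33469 RefSeq promoters of this length held it. The shorter ACGTG, a form of the core of the hypoxia response element, was searched on both strands and lies within every CACGTG. The other form, GCGTG, was not searched. ACGTG was found in the promoters of Pink1, Bnip3 and Opa1 and in 16.6% of all promoters. AAGGTCA, a half-site bound by estrogen-related receptors, was in none of the 8 promoters and in 3.99% of all. CCAAT, the CCAAT box, was in the promoters of Bnip3, Mfn1, Mff and Opa1 and in 1 promoter of Fis1. Among all promoters 34.0% held it. These matches describe letters in the windows shown and say nothing of binding.

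Levels differed widely between the 9 genes, and FPKM, being per length, allows that comparison. In group Sham, Pink1 had the highest mean level at 138.6 ± 35.4 FPKM (SD, n = 3), followed by Fis1 at 86.8 ± 12.4 and Bnip3l at 51.1 ± 3.80, and the rats of neighbouring genes in this order did not overlap. Bnip3 (41.1 ± 4.86) and Mfn1 (37.3 ± 6.04) overlapped each other. Fundc1 (10.1 ± 0.844), Opa1 (9.79 ± 1.07), Mff (8.88 ± 12.7) and Dnm1l (6.45 ± 1.32) formed the low end, each overlapping its neighbour. In group MI the rats of Pink1 (75.8 ± 27.4) and Fis1 (70.9 ± 2.21) overlapped. In group MI + DAPA (1st d), Pink1 (148.8 ± 48.5) and Fis1 (89.8 ± 12.9) were apart again, and Mfn1 (22.0 ± 4.94) was apart from Bnip3l above it.

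**Figure D1:**
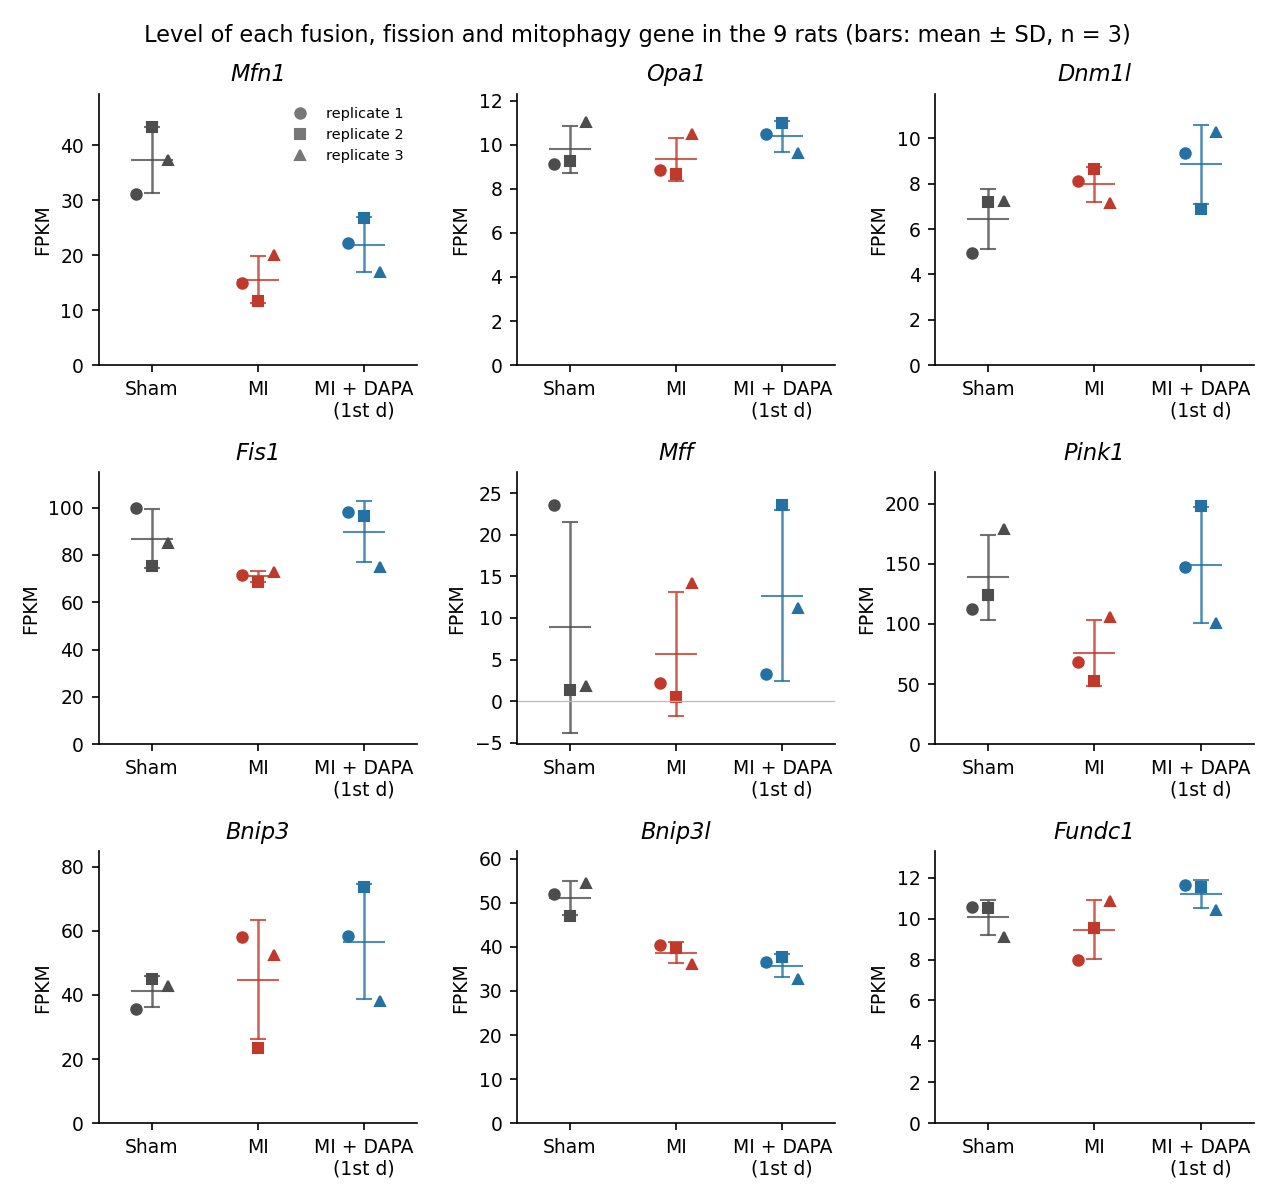
FPKM (y axis) of each of the 9 genes in the 3 rats of group Sham (grey), group MI (red) and group MI + DAPA (1st d) (blue); circles, squares and triangles are replicates 1, 2 and 3, and bars give the mean ± SD. Mfn1 and Bnip3l lie lower in all 6 rats with infarction than in any Sham rat, Pink1 lies below every Sham rat in all 3 MI rats and 1 treated rat, and Mff differs as much within groups as between them.

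The first question was how these genes differed 28 days after infarction. Mfn1 and Pink1 fell in group MI against group Sham (limma, Benjamini-Hochberg adjusted p under 0.05 over all 13485 genes tested) on the deposited scale, a direction that 2 other scalings of the libraries turned for Pink1 and 1 of them for Mfn1, and none of the 9 rose. Across all genes tested, 19.5% were called lower, 19.5% higher and 39.0% in either direction, so 2 of 9 is close to the share among all genes. The groups did not overlap for 4 genes, all lower in MI (Mfn1, Pink1, Bnip3l and Fis1), where 27.5% of all genes were lower without overlap. The median log2 fold change was -0.28 over the 9 genes and -0.005 over all genes. Fibroblast markers rose in the same rats in 9 of 9 and macrophage markers in 9 of 9, endothelial markers fell in 6 of 6, and 2 of 18 cardiomyocyte markers fell; their part in the result was not tested.

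Mfn1, the outer-membrane fusion GTPase, had 31.2, 43.3 and 37.4 FPKM in Sham replicates 1 to 3, and 14.9, 11.6 and 20.1 FPKM in the MI rats. The treated rats had 22.3, 26.7 and 16.9 FPKM. Every rat with infarction was below every Sham rat, while the treated and untreated infarcted rats overlapped. On log2(FPKM + 1), Mfn1 was lower in MI by a log2 fold change of -1.23 ± 0.22 (SE; 95% interval -1.76 to -0.71; limma adjusted p = 0.00605), 0.426 times the Sham level. It was still called with any 1 rat left out, between -1.42 and -1.05 (limma adjusted p from 0.00653 to 0.0253). Opa1, the inner-membrane fusion GTPase, had 9.10, 9.25 and 11.0 FPKM in Sham, 8.86, 8.66 and 10.5 in MI and 10.5, 11.0 and 9.63 in treated rats. All 9 rats lay within a 1.27-fold range, the narrowest of the 9 genes, and the difference between MI and Sham was -0.06 (95% interval -0.42 to 0.30; limma adjusted p = 0.771).

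Among the fission genes no difference passed the test in any comparison. Dnm1l, the constricting GTPase, had 4.92, 7.20 and 7.23 FPKM in Sham, 8.12, 8.65 and 7.14 in MI and 9.37, 6.89 and 10.3 in treated rats. Its log2 fold change was 0.28 ± 0.19 in MI against Sham (95% interval -0.16 to 0.72; limma adjusted p = 0.267), the only one of the 9 besides Bnip3 with a positive sign, and the groups overlapped. Fis1, an outer-membrane adaptor, had 99.95, 75.3 and 85.2 FPKM in Sham, 71.7, 68.4 and 72.7 in MI and 98.2, 96.2 and 75.0 in treated rats. The 3 MI rats were the lowest of the 9, below both other groups. Neither difference passed the test, at -0.28 ± 0.15 against Sham (limma adjusted p = 0.175) and 0.33 ± 0.16 for treated against MI rats (limma adjusted p = 0.558).

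Mff, the main adaptor that brings Drp1 to mitochondria, could not be compared between groups. It had 23.5, 1.34 and 1.77 FPKM in Sham, 2.18, 0.518 and 14.2 in MI and 3.27, 23.6 and 11.2 in treated rats, and each group held at least 1 rat far from another. The values rest on 20 to 829 recovered reads per rat, and the highest rat was 45.6 times the lowest. Within group Sham, 57 of the 13485 genes tested (0.423%) varied as widely on the log2 scale. The 95% interval of the difference between MI and Sham ran from -2.98 to 2.23. By Pearson correlation of log2 levels over the 9 rats, the genes most like Mff were Rpusd4 (r = 0.88), Med9 (0.87), Creld1 (0.86), RGD1310852 (0.86) and Bri3 (0.84). These genes were picked as the highest r among all genes tested, so high values over 9 rats come in part from the choice. Their highest rat was 1.41 to 2.38 times their lowest, so none had a spread of that size. The 9 rats also share groups, libraries and depth.

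Pink1, the kinase that marks damaged mitochondria, had 112.7, 124.3 and 179.0 FPKM in Sham, 68.3, 52.8 and 106.1 in MI and 147.5, 197.9 and 101.0 in treated rats. All MI rats were below all Sham rats, though MI replicate 3 came close to the lowest Sham rat, and the treated rats overlapped both groups. Pink1 fell in MI by 0.89 ± 0.29 on the log2 scale (95% interval -1.58 to -0.21; limma adjusted p = 0.0457), to 0.538 times the Sham level. The call sat at the threshold. It held without MI replicate 3 (limma adjusted p = 0.0184) and was lost without any other single rat, with limma adjusted p from 0.0584 to 0.138 and log2 fold changes from -1.03 to -0.67. It was also lost without the filter on low values (0.088) and without the trend in the prior variance (limma adjusted p = 0.0533 there).

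Bnip3l (Nix), a receptor that also clears mitochondria from maturing red cells, had 51.9, 47.0 and 54.5 FPKM in Sham, 40.4, 39.7 and 36.1 in MI and 36.6, 37.8 and 32.8 in treated rats. Its replicates were tight, and all 6 infarcted rats were below all Sham rats. The difference between MI and Sham was -0.39 ± 0.13 (95% interval -0.70 to -0.08), just outside the threshold at limma adjusted p = 0.0501. It was called lower with a pseudocount of 0.1 (limma adjusted p = 0.0484), without the filter on low values (0.0434) and with all 9 rats in 1 fit (0.0345). With the first and last of these settings, 3 of the 9 genes were lower, where 19.2% and 19.4% of all genes were. Its relative Bnip3, a receptor and BH3-domain protein, had 35.6, 44.8 and 42.9 FPKM in Sham, 58.1, 23.6 and 52.6 in MI and 58.3, 73.6 and 38.1 in treated rats. MI replicate 2 was the lowest of the 9 rats and the other two MI rats exceeded every Sham rat. The log2 fold change in MI was 0.03 ± 0.33 with all rats and 0.42 without MI replicate 2 (limma adjusted p = 0.957 and 0.104). Fundc1, a receptor that acts under hypoxia, had 10.6, 10.5 and 9.08 FPKM in Sham, 7.97, 9.54 and 10.9 in MI and 11.6, 11.6 and 10.4 in treated rats, with groups that overlapped and a log2 fold change in MI of -0.09 (95% interval -0.47 to 0.30).

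The second question was whether early dapagliflozin moved these genes in infarcted rats. By limma, none of the 9 was called in treated against untreated infarcted rats, and 0 of all 13251 genes tested were (0%), the smallest adjusted p over all genes being 0.558. At an unadjusted p under 0.05, 1 of the 9 was higher (Pink1), as were 4.59% of all genes, and 8.49% of all genes passed in either direction. The groups did not overlap for 1 gene (Fis1, higher), where 6.63% of all genes were higher without overlap. The log2 fold change was positive for 8 of the 9 genes and negative for Bnip3l, with a median of 0.33 against -0.02 over all genes. In these rats 4 of 18 cardiomyocyte markers and 12 of 21 nuclear genes of the respiratory chain and citrate synthase passed the unadjusted threshold. The median log2 fold changes over these whole lists were 1.22 and 0.89. Of the other markers, 2 of 6 endothelial (median 0.36), 2 of 9 macrophage (-0.82) and 1 of 9 fibroblast markers (-0.54) passed. So did 1 of 4 lymphocyte (-1.73) and 0 of 5 smooth muscle markers (0.04). The part of all these lists in the result was not tested.

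Pink1 differed by 0.97 ± 0.33 (95% interval 0.18 to 1.76), 1.96 times the MI level, at an unadjusted limma p of 0.0229 and an adjusted p of 0.558. With any 1 rat left out the log2 fold change ran from 0.74 to 1.24, but it was 0.17 when libraries were scaled to the nuclear respiratory chain genes and -0.18 when scaled to the cardiomyocyte markers. DAPA replicate 3, at 101.0 FPKM, was below MI replicate 3. Mfn1 differed by 0.48 (95% interval -0.09 to 1.06), Bnip3 by 0.38 (-0.54 to 1.31) and Fundc1 by 0.23 (-0.12 to 0.58). Without MI replicate 2, the Bnip3 difference was -0.01. Opa1 differed by 0.14 (-0.17 to 0.46), Dnm1l by 0.12 (-0.29 to 0.53) and Bnip3l by -0.11 (-0.42 to 0.19). Each of these intervals is on the log2 scale and includes both 0 and differences of more than 0.1 in size, so an absence of change was not shown. Mff differed by 1.38 with an interval from -0.86 to 3.62.

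**Figure D2:**
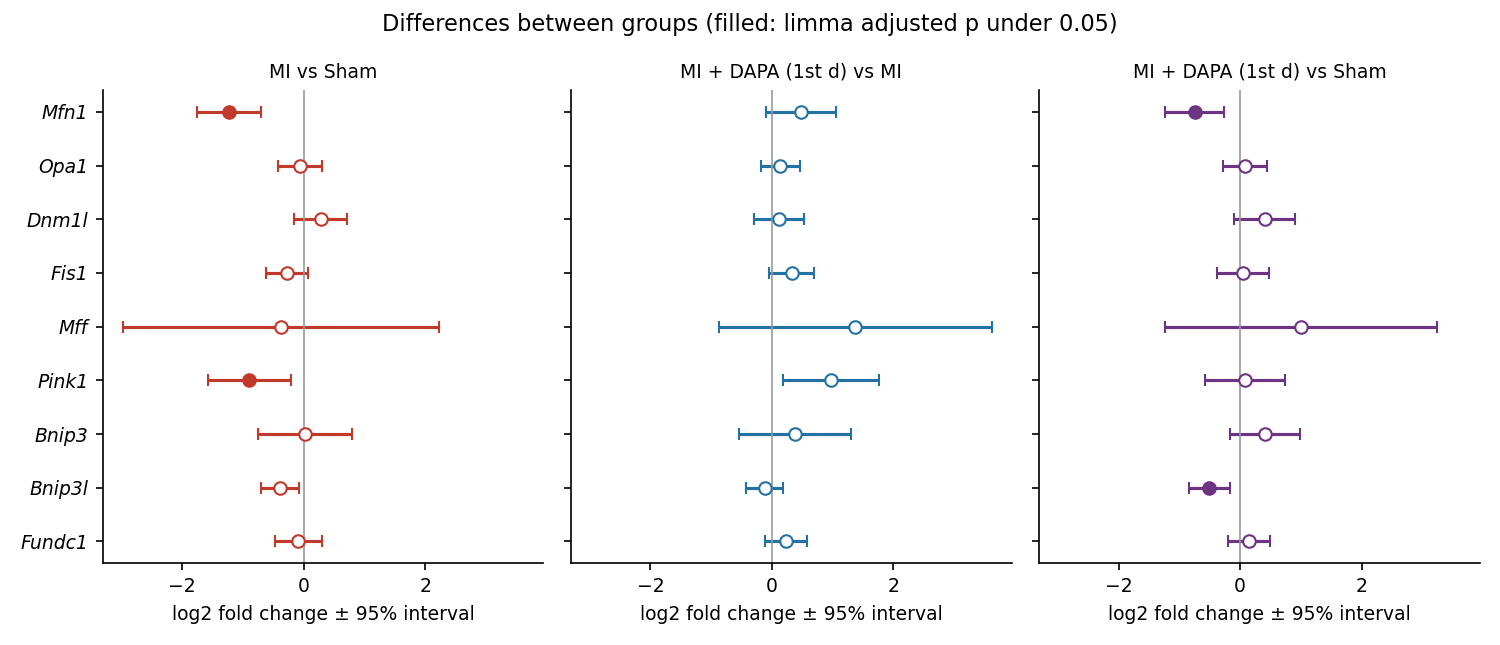
Log2 fold changes with 95% intervals (x axis) of the 9 genes (rows) in the 3 comparisons; filled circles passed a limma adjusted p of 0.05 on the deposited scale, from which Pink1, Bnip3l and Mfn1 turn sign under some other scalings. Mfn1 and Pink1 are filled in MI against Sham, none in MI + DAPA (1st d) against MI, and Mfn1 and Bnip3l in MI + DAPA (1st d) against Sham.

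The third comparison asked which genes of treated infarcted rats stood apart from sham. Mfn1 and Bnip3l fell in group MI + DAPA (1st d) against group Sham on the deposited scale and none rose, so 2 of 9 were lower where 14.1% of the 13359 genes tested were. The same 2 genes had no overlap between groups, where 23.3% of all genes were lower without overlap. Mfn1 was lower by a log2 fold change of -0.75 ± 0.21 (95% interval -1.24 to -0.26; limma adjusted p = 0.0335), 0.595 times the Sham level. Bnip3l was lower by -0.51 ± 0.15 (95% interval -0.84 to -0.17; limma adjusted p = 0.0364), 0.705 times the Sham level. Both calls depended on single rats and on settings of the fit. That of Mfn1 was lost without Sham replicate 2, Sham replicate 3, DAPA replicate 1 or DAPA replicate 3 (limma adjusted p from 0.083 to 0.0929), and that of Bnip3l was lost without any 1 rat other than Sham replicate 2 (from 0.0641 to 0.121). The Mfn1 call was also lost without the filter on low values (limma adjusted p = 0.0605), and the Bnip3l call without the trend in the prior variance (0.0552) and under a replicate block (0.0655). Pink1 differed by 0.08 (95% interval -0.59 to 0.74; limma adjusted p = 0.859), with treated rats on both sides of the Sham range. Bnip3 differed by 0.41 (-0.16 to 0.99), Dnm1l by 0.40 (-0.10 to 0.91), Fundc1 by 0.14, Opa1 by 0.08 and Fis1 by 0.05. Between the same groups 12 of 18 cardiomyocyte markers, 9 of 9 fibroblast markers and 9 of 9 macrophage markers rose, and 5 of 6 endothelial markers fell; their part in the result was not tested.

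The direction of several of these differences depended on how libraries were made comparable. The deposited FPKM roughly followed the reads outside the mitochondrial genome, since leaving that genome out moved the differences between groups by only 0.04 to 0.10 on the log2 scale. Scaling to the median ratio over genes detected in every rat left Mfn1 at -1.22 and Pink1 at -0.88 in MI against Sham. Both were still called there (limma adjusted p = 0.00615 and 0.0466). Scaling to all recovered reads instead put the median of all genes in MI against Sham at 0.91, and scaling every rat to the same FPKM sum put it at 1.27. Mfn1 was then -0.17 and 0.26, Pink1 0.21 and 0.65, and Bnip3l 0.70 and 1.13, so that Pink1 and Bnip3l turned positive under both and Mfn1 under the second. Set against the median of all genes under the same scaling, Mfn1 was lower under all 7 scalings, by -1.23 to -1.01, Pink1 by -0.89 to -0.62 and Bnip3l by -0.39 to -0.14. Each scaling multiplies a whole library by a common factor, which this subtraction largely removes. Agreement between scalings after subtraction is therefore mostly built in, here and below, and is no separate support. Scaled to the cardiomyocyte markers, Mfn1 was -0.84 and Pink1 -0.49 in MI against Sham, scaled to the nuclear respiratory chain genes they were -1.01 and -0.66, and neither was called under either. In MI + DAPA (1st d) against Sham, Mfn1 and Bnip3l turned to 0.11 and 0.36 with all recovered reads and to 0.39 and 0.65 with the same sum, while relative to the median of all genes they stayed lower under all 7 scalings, by -0.87 to -0.56 and -0.64 to -0.30. With the cardiomyocyte scaling, the median of all genes in MI + DAPA (1st d) against MI lay at -1.005, 8 of the 9 genes were negative there with Mff the exception, and Pink1 was -0.18, while relative to that median Pink1 stood at 0.82 and Mfn1 at 0.38.

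**Figure D3:**
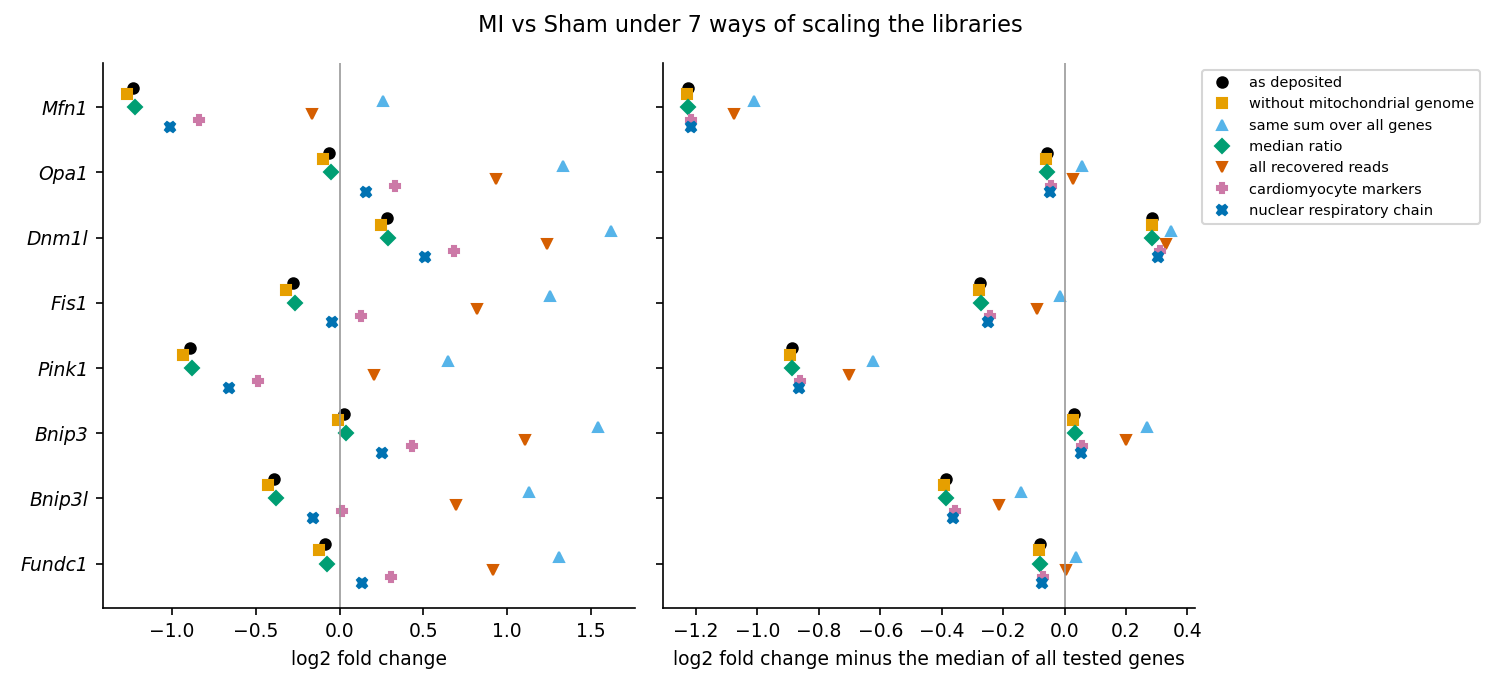
Log2 fold change of 8 genes in MI against Sham (Mff left out for its spread) under 7 scalings of the libraries, as fitted (left) and after subtracting the median of all tested genes (right). Values as fitted spread by more than 1 log2 unit and cross 0 for all genes but Dnm1l, whereas after subtraction Mfn1, Pink1, Fis1 and Bnip3l stay negative and Dnm1l and Bnip3 positive under all 7. Subtraction largely removes the common factor of each library, so the agreement on the right is mostly built in.

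Ratios of 2 genes within a rat do not depend on any scaling of the library. The 4 ratios named here were chosen after the values had been seen and serve as description, and with 3 rats against 3 an exact permutation test cannot go below p = 0.1. Mfn1 over Opa1, outer against inner membrane fusion, was 3.43, 4.68 and 3.39 in Sham, 1.69, 1.34 and 1.92 in MI and 2.12, 2.43 and 1.75 in treated rats, so both infarcted groups lay below Sham (two-sided exact permutation p = 0.1 for each). Pink1 over Bnip3l was 2.17, 2.64 and 3.29 in Sham, 1.69, 1.33 and 2.94 in MI and 4.03, 5.23 and 3.08 in treated rats. Treated rats were above MI rats without overlap (exact permutation p = 0.1), while MI and Sham overlapped (p = 0.3). Bnip3 over Bnip3l was 0.686, 0.954 and 0.787 in Sham and 1.59, 1.95 and 1.16 in treated rats, higher without overlap. In MI it was 1.44, 0.595 and 1.46, with MI replicate 2 below all Sham rats. Dnm1l over Fis1 was 0.0493 to 0.0955 in Sham and 0.0982 to 0.126 in MI without overlap, and 0.0716 to 0.137 in treated rats.

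**Figure D4:**
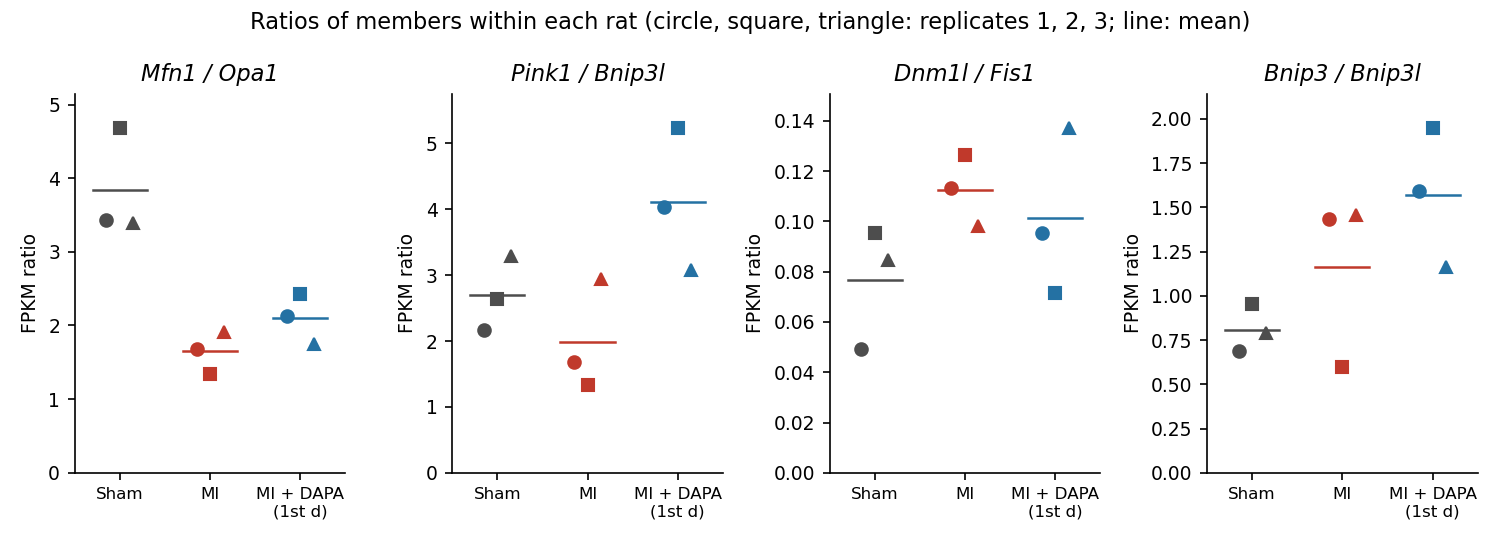
FPKM ratio of 4 gene pairs (y axis, from 0) in each rat of group Sham (grey), group MI (red) and group MI + DAPA (1st d) (blue), with circles, squares and triangles for replicates 1, 2 and 3 and lines for means. Mfn1 over Opa1 is 3.39 to 4.68 in Sham rats and 1.34 to 2.43 in the 6 infarcted rats.

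The other genes of fusion, fission, transport, mitophagy and autophagy were taken from fixed lists of 79 genes, of which 74 had a row and 71 were tested. In MI against Sham 11 rose and 11 fell, 31.0% of the 71 where 39.0% of all genes changed, with a median log2 fold change of -0.06. Of 4 genes that move mitochondria along microtubules, 2 fell and none rose, where 19.5% of all genes were called lower. Rhot2 (Miro2), an outer-membrane GTPase that links mitochondria to motors, fell from 31.4 ± 5.29 to 10.5 ± 0.942 FPKM (log2 fold change -1.48 ± 0.17; limma adjusted p = 0.00147), and its paralogue Rhot1 (Miro1) fell from 19.6 ± 1.74 to 7.44 ± 0.789 (-1.29 ± 0.15; limma adjusted p = 0.00153). Trak1, a motor adaptor, differed by -0.39 and did not pass. Of 2 tested fusion accessory genes, Miga2, an outer-membrane protein that promotes fusion, fell from 28.1 ± 10.9 to 7.73 ± 1.27 FPKM (-1.69 ± 0.27; limma adjusted p = 0.0039), and Slc25a46 differed by 0.28 without passing. Relative to the median of all genes these 3 were lower under all 7 scalings, Rhot2 by -1.48 to -1.28, Rhot1 by -1.29 to -1.12 and Miga2 by -1.69 to -1.51. That agreement between scalings is largely built in by subtracting the median. As fitted with every rat scaled to the same sum, however, Rhot2 was -0.00889, Rhot1 0.15 and Miga2 -0.24.

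Of 10 fission accessory genes, 3 rose and 1 fell in MI. Beside this and each list count below, 19.5% of all genes were called higher and 19.5% lower. Marchf5, an outer-membrane ubiquitin ligase, rose by 0.80 ± 0.20 (limma adjusted p = 0.0185) and Mtfr1l by 0.73 ± 0.22, and Mtfr2 fell by 0.65 ± 0.18. Of 6 genes that process Opa1 or belong to the prohibitin group, Oma1, the stress-activated protease that cleaves Opa1, rose by 0.73 ± 0.20 (from 2.29 ± 0.239 to 4.51 ± 0.969 FPKM), Afg3l2 fell by 0.56 ± 0.17, and Parl, the inner-membrane protease that cleaves Pink1, differed by -0.45 without passing. In the Pink1 and Parkin arm 1 of 13 rose and 1 fell. These were the autophagy receptor Sqstm1 (p62), from 93.7 ± 6.83 to 143.5 ± 22.8 FPKM (0.60 ± 0.16; limma adjusted p = 0.0253), and Tomm7, a subunit of the outer-membrane translocase that holds Pink1 at the surface, from 144.9 ± 54.2 to 73.5 ± 3.46 FPKM (-0.89 ± 0.29; limma adjusted p = 0.0485). The Tomm7 call sat near the threshold. Its Sham rats had 166.2, 185.2 and 83.4 FPKM, the last close to the highest MI rat at 76.8. Of 7 other mitophagy genes 2 rose and none fell. Bcl2l13, an outer-membrane mitophagy receptor, rose from 1.67 ± 0.889 to 6.05 ± 1.28 FPKM (1.45 ± 0.30; limma adjusted p = 0.00956), on 12 to 219 recovered reads per rat, and Csnk2a1, a kinase subunit, by 0.74 ± 0.20. Of 29 autophagy genes 4 rose and 5 fell, with Atg13 higher by 0.83 ± 0.17, Gabarap higher by 0.76 ± 0.15 and Atg16l1 lower by 1.05 ± 0.18 on the log2 scale. As fitted with every rat scaled to the same sum, Mtfr2 (0.77), Afg3l2 (0.91), Tomm7 (0.65) and Atg16l1 (0.39) turned positive. All 4 were below the median of all genes under all 7 scalings, an agreement that the use of the median largely builds in.

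**Figure D5:**
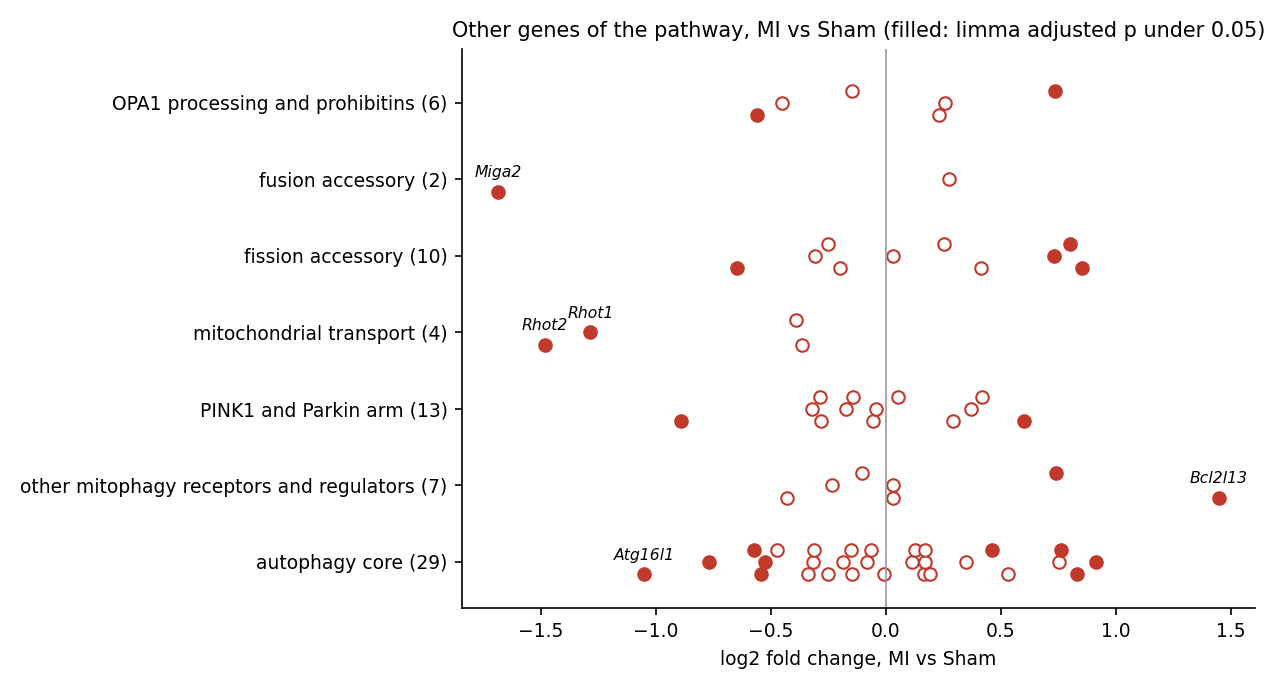
Log2 fold change in MI against Sham (x axis) of the 71 tested genes in 7 lists of the pathway (rows, number tested in brackets); filled circles passed a limma adjusted p of 0.05, and names mark called genes with a change of more than 1 log2 unit. Rhot1, Rhot2, Miga2 and Atg16l1 lie furthest to the left and Bcl2l13 furthest to the right.

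In treated against MI rats, limma called 0 of the 71 genes, as it called 0% of all genes. At an unadjusted limma p under 0.05, 7 of the 71 passed, 6 of them higher. Over all 13251 genes tested 8.49% passed, and 4.59% were higher. Among the genes named above these were Miga2 (0.54, 95% interval 0.10 to 0.99), Tomm7 (0.61, 0.16 to 1.07) and Atg13 (-0.41, -0.77 to -0.05), each at limma adjusted p = 0.558. In treated rats against Sham 6 rose and 6 fell, 16.9% of the 71 where 28.6% of all genes changed. Rhot2 (-1.15 ± 0.22; limma adjusted p = 0.00965), Rhot1 (-1.11 ± 0.17; 0.00486) and Miga2 (-1.14 ± 0.27; 0.0199) fell, and Oma1 (0.83 ± 0.18; 0.0135), Sqstm1 (0.68 ± 0.15; 0.0155) and Bcl2l13 (1.09 ± 0.31; 0.0362) rose, of which Sqstm1 turned to -0.06 when scaled to the cardiomyocyte markers. With every rat scaled to the same sum, Rhot2 (-0.0144), Rhot1 (-0.0107) and Miga2 (-0.0234) were close to 0 as fitted. Relative to the median of all genes they were lower under all 7 scalings, by -1.25 to -0.97, -1.18 to -0.97 and -1.24 to -0.98, which the subtraction largely builds in.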

How the data were processed

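The table the authors deposited holds FPKM for each rat, made from poly-A selected, paired-end libraries. HISAT2 2.0.5, StringTie 1.3.3b, featureCounts 1.5.0-p3 and DESeq2 are named in the submitters' processing notes without their roles, and the genome build is not given in the sources used here. The authors called genes with DESeq2 at a p-value under 0.05 where the log2 fold change was over 1 in size. Those thresholds served here as an alternative.

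For each comparison the 6 rats concerned were fitted with limma 3.58.1 in R 4.3.3, with a trended prior variance, on log2(FPKM + 1) of the genes at 1 FPKM or more in at least 3 of them. The pseudocount understates changes of low genes. Calls used a Benjamini-Hochberg adjusted p under 0.05 over all tested genes, and intervals are 95%. Whole reads were recovered from the steps between low values, within 0.02 of a whole number, and no count model was used. The code was tested on simulated data. Columns not used numbered 0.

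The genes, lists and rules were chosen with earlier results of these data known. All 10 genes are named, with up to 3 genes per pathway list by smallest p in MI against Sham, and the 5 genes most like the one with the widest range. Alternatives covered the pseudocount, the filter, 6 scalings, all 9 rats in 1 fit, the replicate block, the prior variance, the call rule and each rat left out. The study's methods state 3 biological replicates per group.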

Additional observations from a re-analysis of the deposited data

How the results depend on the processing

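Over the 17 alternatives to each log2 fold change, the calls rested mostly on the scaling of the libraries and on single rats. The cause was not tested beyond what the construction of each alternative shows. Scaled to the same sum over all genes, MI against Sham turned positive for Mfn1 (0.26), Opa1 (1.33), Fis1 (1.26), Mff (0.64), Pink1 (0.65), Bnip3l (1.13) and Fundc1 (1.31), MI + DAPA (1st d) against MI turned negative for Opa1 (-0.20), Dnm1l (-0.21), Fis1 (-0.039) and Fundc1 (-0.11), and MI + DAPA (1st d) against Sham turned positive for Mfn1 (0.39) and Bnip3l (0.65). The genes called were then 7 higher and 0 lower in MI against Sham and 7 higher and 0 lower in MI + DAPA (1st d) against Sham, with 66 and 57 of the pathway genes changed, where 79.0% and 63.0% of all genes were higher, 2.49% and 1.97% lower and 81.5% and 65.0% changed, so these counts follow a shift of most genes. Scaled to all recovered reads, the first comparison turned positive for Opa1 (0.94), Fis1 (0.82), Mff (0.36), Pink1 (0.21), Bnip3l (0.70) and Fundc1 (0.91), the second negative for Opa1 (-0.0646) and Dnm1l (-0.0789), and the third positive for Mfn1 (0.11) and Bnip3l (0.36). Then 6 were called higher and 0 lower in the first and in the third, with 59 and 51 pathway genes changed, where 65.6% and 52.8% of all genes were higher and 69.9% and 56.3% changed. Scaled to the cardiomyocyte markers, the first turned positive for Opa1 (0.33), Fis1 (0.13), Bnip3l (0.0162) and Fundc1 (0.30), the second negative for Mfn1 (-0.62), Opa1 (-0.92), Dnm1l (-0.92), Fis1 (-0.82), Pink1 (-0.18), Bnip3 (-0.75) and Fundc1 (-0.84), and the third negative for Opa1 (-0.59), Dnm1l (-0.24), Fis1 (-0.69), Pink1 (-0.67), Bnip3 (-0.32) and Fundc1 (-0.53). The first then had 0 genes called lower and 0 pathway genes changed, and the third 20 pathway genes changed, where 1.85% of all genes were lower and 8.65% changed in the first and 32.7% changed in the third. Scaled to the nuclear respiratory chain genes, the first turned positive for Opa1 (0.15) and Fundc1 (0.13), the second negative for Mfn1 (-0.29), Opa1 (-0.59), Dnm1l (-0.60), Fis1 (-0.48), Bnip3 (-0.41) and Fundc1 (-0.51), and the third negative for Opa1 (-0.44), Dnm1l (-0.0912), Fis1 (-0.52), Pink1 (-0.49), Bnip3 (-0.15) and Fundc1 (-0.38), with 0 genes lower and 3 pathway genes changed in the first, where 6.34% of all genes were lower and 19.7% changed. Without the mitochondrial genome, Bnip3 was -0.012 in the first, and Opa1 (-0.0113), Fis1 (-0.0499) and Pink1 (-0.0195) turned in the third. With any 1 rat left out, the first ran from -0.14 to 0.0173 for Opa1, -1.30 to 0.72 for Mff, -0.21 to 0.42 for Bnip3 and -0.18 to 0.0204 for Fundc1, the second from -0.0137 to 0.64 for Bnip3, and the third from -0.0491 to 0.17 for Fis1 and -0.15 to 0.33 for Pink1. The genes called lower then numbered 1 to 2 in the first and 0 to 1 in the third, and the pathway genes changed 9 to 20 in the first and 4 to 12 in the third. The shares of all genes also fell. In the first 12.9% to 16.3% were lower and 25.0% to 34.5% changed, and in the third 7.24% to 12.2% and 14.0% to 23.7%. Without the filter the pathway genes changed were 13 in the first, where Bnip3l was called lower in place of Pink1, and 1 gene was lower in the third, where the Mfn1 call was lost. Among all genes 19.6% then changed in the first and 6.21% were lower in the third. Without the trend in the prior variance 1 gene was lower in the first and 1 in the third, where the calls of Pink1 and of Bnip3l were lost. That setting called 19.2% of all genes lower in the first and 13.8% in the third. At an unadjusted p under 0.05, 1 gene was higher and 7 pathway genes changed in the second and 25 in the third, and with the study's fold threshold added, 1 gene and 5 pathway genes were called in the first and 0 and 5 in the third. At the unadjusted threshold alone 4.59% of all genes were higher and 8.49% changed in the second, and 5534 of 13359 changed in the third. The share of all genes with the fold threshold added is not given here. With all 9 rats in 1 fit, 20 pathway genes changed in the third, where 31.1% of all genes changed. The replicate numbers do not mark shared animals, and same-numbered rats had correlations of deviations from -0.32 to 0.20, so they were not taken as pairs. Under a replicate block, 2 genes were called lower and 14 pathway genes changed in the first and 1 gene was lower in the third, where Bnip3l was no longer called. The block called 15.7% of all genes lower and 32.25% changed in the first, and 13.9% lower in the third. With 3 rats a group, an interval that includes 0 does not show an absence of change, and the values of Mff rest on as few as 20 recovered reads in 1 rat.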
